A study of Mus musculus with 13 samples.

Results

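Spinal metastases of medulloblastoma that had lost Kmt2d were compared, gene by gene, with primary cerebellar medulloblastomas in which Kmt2d was intact. The comparison used 9 of the 13 libraries of a mouse RNA-seq series. These were 4 KO metastasis libraries, numbered 3, 4, 6 and 7, and 5 control primary libraries, numbered 3 to 7. Its members were the 22265 of 53653 genes that passed a filter on low counts. All mice overexpressed SmoM2, an activated form of the Hedgehog receptor subunit Smoothened. The controls (SmoM2) were 6 to 16 weeks old and carried no Kmt2d knockout, whereas the knockout mice (SmoM2-Kmt2dCf/Cf) were 5 to 8 weeks old. The other 4 libraries came from KO primary tumours, numbered 3, 4, 6 and 7, of the same genotype and age range as the metastases. The driver of recombination and the deleted part of Kmt2d were not given in the sources used here. Tumour cells were sorted by GFP after papain dissociation. Frozen pellets held 1000000 to 5000000 cells for primary tumours and 100000 to 3000000 for metastases.

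KMT2D is a histone methyltransferase that places methyl groups on lysine 4 of histone H3, mainly at enhancers, and is a recurrent target of inactivating mutations in medulloblastoma. Sonic Hedgehog medulloblastoma arises from granule cell precursors, the dividing cells of the young cerebellum that later exit the cycle and become granule neurons. Such tumours spread chiefly along the leptomeninges to the spinal cord. The metastases differed from the controls in genotype, site and age range at once, and in this comparison these cannot be told apart. Nothing in the labels ties libraries to separate mice, so p-values measure only the spread between libraries, which may be technical. In bulk RNA, fewer cells of a type and less RNA per cell also cannot be told apart.

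The control libraries held 23545383 to 37493486 counts and the metastases 27086589 to 40813242 counts. Levels are given as CPM, the counts scaled to library size with TMM factors, in the order of the library numbers. Olfactory and vomeronasal receptor genes, which neither tissue uses, summed to 1750 CPM in control 3, 565 in metastasis 6 and 349 in metastasis 7, against 6.08 to 19.5 CPM in the other 6 libraries compared. Xist exceeded 10 CPM in controls 5, 6 and 7 and in no other library, so sex as read from Xist was uneven between the groups. Metastasis 3 held 2.06% of its counts on mitochondrial genes, against 0.745% to 0.86% in the other metastases. The granule cell precursor factors Atoh1 (371 to 861 CPM) and Zic1 (198 to 364 CPM) were detected in every metastasis, so the spinal cells expressed the lineage genes of the labelled tumour.

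Kmt2d itself (chr15:98831669-98871204, GRCm38, minus strand) was at 78.1, 104.5, 175, 129 and 141 CPM in controls 3 to 7 and at 115, 104.7, 111 and 131 CPM in metastases 3, 4, 6 and 7. The groups overlapped, and the log2 change was -0.12 (SE 0.23, edgeR adjusted p = 0.945). Counts over the whole gene do not test a deletion of part of it and so do not check the labels. Smo was at 188 to 328 CPM in controls and 190 to 416 CPM in metastases (log2 0.05, SE 0.22, edgeR adjusted p = 0.98).

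At an adjusted p below 0.05, 685 genes (3.08% of those tested) differed between metastases and controls. Of these, 235 (1.06%) were higher in the metastases and 450 (2.02%) were lower, with changes of at least 2-fold in 156 and 360. Protein-coding genes made up 623 of the 685, and 17 lay on the X chromosome. In KO primary against control primary tumours, 447 of the 685 were also called in the same direction. Both contrasts use the same controls. The libraries of the groups did not overlap for 632 of the called genes; over all tested genes 2.81% lay wholly higher in the metastases and 4.01% wholly lower. Over all tested genes the median log2 change was -0.039, and 46.6% of genes had a positive change. The shares of 1.06% higher and 2.02% lower are the background for the counts of every gene and marker list below. The plot of change against level shows the falls reaching across all levels and the largest rises at genes almost silent in the controls.

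**Figure D1:**
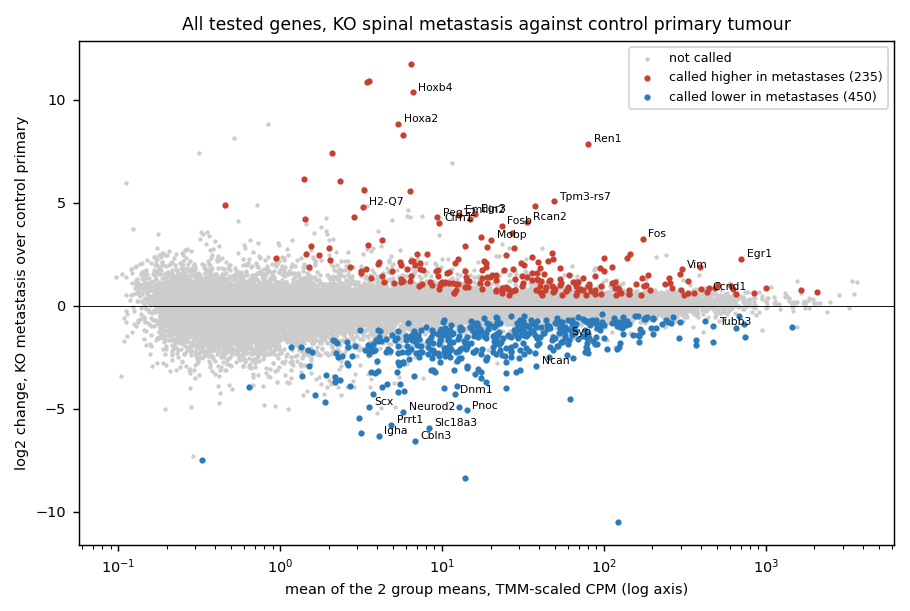
Each point is 1 of the 22265 tested genes; the x axis is the mean of both group means in TMM-scaled CPM on a log axis, and the y axis is the log2 change of KO metastasis over control primary. Red points are the 235 genes called higher and blue points the 450 called lower; the Hox genes and Ren1 stand at the top and Cbln3 and the immunoglobulin genes among the largest falls, with Xist the unlabelled point furthest down.

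The number of calls depended on single libraries. Leaving out control 4, 6 or 7 gave 379, 436 and 428 calls, and leaving out metastasis 3, 4 or 6 gave 410, 369 and 401. Without control 3, which had the most receptor counts, the number was 1199. Without the 4 libraries of the series above 100 CPM of receptor genes it was 1274, of which 581 were higher. The share of calls that were higher was 34.3% in the test as fitted, 45.6% without those 4 libraries and 60.6% with limma voom and quality weights. With Xist status as a covariate the number of calls was 329, and without controls 5, 6 and 7 it was 100, from 2 controls against 4 metastases. Of the 102 called genes named here, 45 kept their call with the covariate and 19 without those 3 controls. The genes Clrn1, Cxcl12, Dlg4, Egr3, Ephb1, Grb10, H2-Q7, H2-T23, Ncan, Peg12, Pnoc, Rab3a, Syp and Tpm3-rs7 were called under all 19 alternative settings run. The called Hox genes, Ren1, Rcan2, Fos, Fosb, Egr1, Egr2, Sox2, Barhl1, Ccnd1, Mbp and Mobp were among those that lost their call with Xist as a covariate.

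Several genes that were close to silent in the controls were expressed in every metastasis and in every KO primary tumour. Clrn1 (chr3:58844028-58885340), which encodes the hair-cell and retinal membrane protein clarin 1, was at 1.18, 0.652, 0.988, 1.67 and 1.08 CPM in the controls and 18.8, 19.3, 14.01 and 20.4 CPM in the metastases. The lowest metastasis stood far above the highest control, a 16.3-fold difference of means (log2 4.02, SE 0.24, edgeR adjusted p = 1.76e-06). Peg12, a paternally expressed gene of the Prader-Willi region, was at 1.52, 0.385, 0.608, 1.74 and 0.35 CPM in controls and 19.4, 26.7, 12.4 and 12.8 CPM in metastases (log2 4.28, SE 0.47, edgeR adjusted p = 0.000355). Emilin2, an extracellular matrix glycoprotein, lay between 0.684 and 1.63 CPM in controls and between 13.6 and 51.7 CPM in metastases (log2 4.40, SE 0.56, edgeR adjusted p = 0.00094). Metastasis 4 was the highest for both Peg12 and Emilin2, and the groups overlapped for neither.

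Tpm3-rs7, a tropomyosin-related sequence, was at 1.75 to 3.64 CPM in controls and 88.8 to 102 CPM in metastases (log2 5.06, SE 0.19, edgeR adjusted p = 9.28e-09). H2-Q7, a class Ib histocompatibility gene, was at 0.0296 to 0.619 CPM in controls and 4.78 to 8.08 CPM in metastases (log2 4.78, SE 0.57, edgeR adjusted p = 0.000634). Both of these have near-identical copies elsewhere in the genome, so their counts are uncertain. In KO primary tumours Tpm3-rs7 was at 83.45 to 97.1 CPM and H2-Q7 at 4.04 to 5.79 CPM.

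The largest falls included the neuronal genes Pnoc, Prrt1 and Cbln3. Pnoc, the precursor of the neuropeptide nociceptin, was at 25.8, 44.9, 18.9, 14.3 and 34.7 CPM in controls and 1.11, 0.318, 0.457 and 1.38 CPM in metastases. No metastasis came near the lowest control, and the means differed 33.9-fold (log2 -5.08, SE 0.72, edgeR adjusted p = 0.00186). Prrt1, a transmembrane protein associated with AMPA-type glutamate receptors, was at 6.16 to 13.7 CPM in controls and 0 to 0.281 CPM in metastases (log2 -5.80, SE 0.92, edgeR adjusted p = 0.00389). Cbln3, a cerebellin secreted by mature granule neurons, was at 3.31, 18.5, 3.65, 3.77 and 38.1 CPM in controls and 0, 0.0796, 0.281 and 0.201 CPM in metastases. Controls 4 and 7 were the highest. In KO primary tumours Pnoc was at 0.19 to 2.17 CPM, Prrt1 at 0 to 0.515 CPM and Cbln3 at 0.0544 to 3.55 CPM. The log2 change of Cbln3 was -6.55 (SE 1.43, edgeR adjusted p = 0.0235), and the call ended when control 7 or any 1 metastasis was left out (adjusted p up to 0.0842).

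Of the other largest falls, Neurod2 and Dnm1 are described with their gene groups below. Slc18a3, the vesicular acetylcholine transporter, was at 5.21 to 32.1 CPM in controls and was counted only in metastasis 3 among the metastases, at 1.11 CPM (log2 -5.93, SE 1.26, edgeR adjusted p = 0.02). Its call ended without control 7 or without metastasis 4, 6 or 7 (adjusted p up to 0.0603). The plasma cell genes Igha and Igkc were at 0.74 to 18.8 and 0.837 to 14.4 CPM in controls and at most 0.345 and 0.288 CPM in metastases (log2 -6.30 and -6.17, edgeR adjusted p = 0.0154 and 0.0286). Without metastasis 3, 4 or 6 both calls ended, and that of Igkc also without control 5 (adjusted p up to 0.0869). Krt23 and Krt12, keratins, and Pitpnm3, a phosphatidylinositol transfer protein, fell with log2 changes of -5.46, -4.89 and -4.29 (edgeR adjusted p = 0.0334, 0.0238 and 0.0295). Krt12 lost its call without metastasis 4 or 7 (adjusted p up to 0.0784). Krt23 and Pitpnm3 lost theirs without control 4, 6 or 7 or any 1 metastasis (adjusted p up to 0.107 and 0.0887). Scx, a tendon transcription factor, fell by 4.93 on the log2 scale (edgeR adjusted p = 0.0151) and missed the threshold without metastasis 3 (adjusted p = 0.0557).

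**Figure D2:**
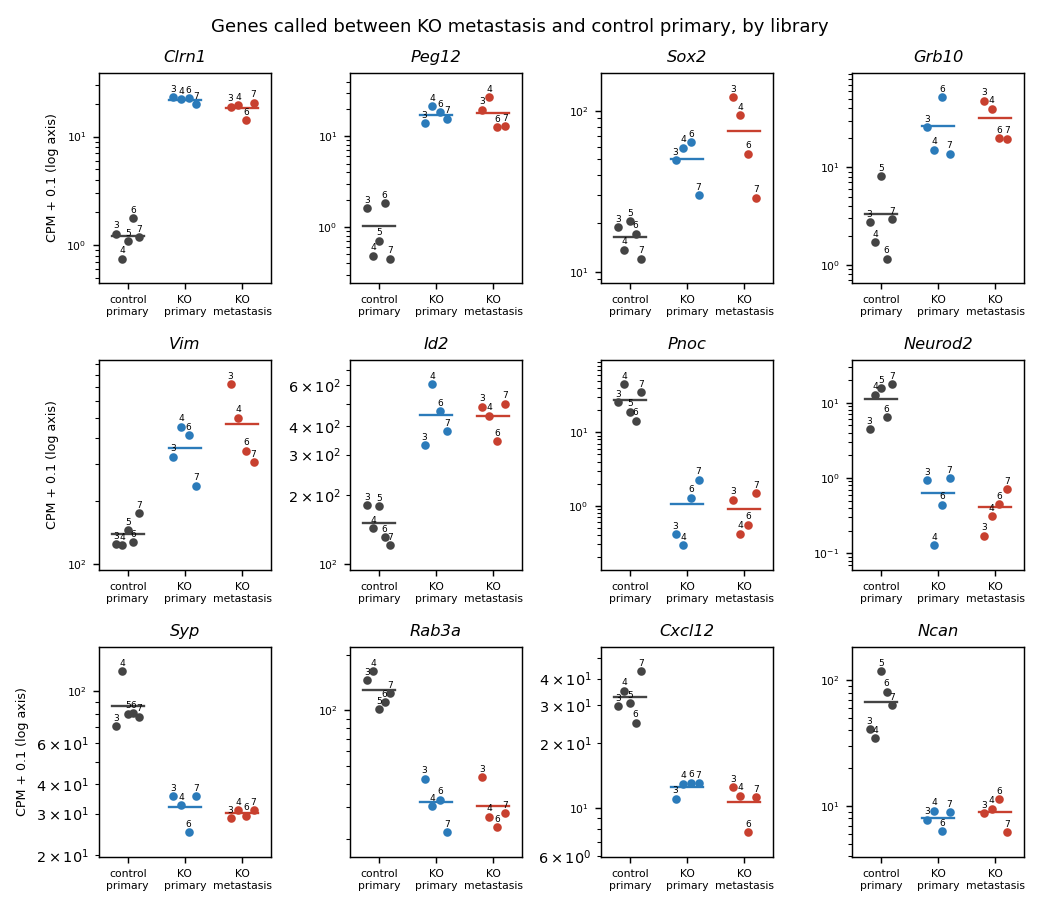
Each panel shows 1 gene, with CPM plus 0.1 on a log axis, 1 point per library labelled with its number, and the group mean as a bar, for control primary, KO primary and KO metastasis. In all 12 panels the control and metastasis libraries are apart; Clrn1, Peg12, Sox2, Grb10, Vim and Id2 are higher in the metastases and Pnoc, Neurod2, Syp, Rab3a, Cxcl12 and Ncan lower.

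Genes of neuronal differentiation were lower in the metastases than in the controls as a group, and they were lower in KO primary tumours too. Of 21 tested genes of early neuronal differentiation, 10 fell and none rose by edgeR, against 2.02% and 1.06% of all genes, and their median log2 change was -0.76 against -0.039. DESeq2 called 14 lower and 1 higher, Rbfox3. By edgeR, KO primary against control called 14 of the 21 lower and 0 higher, with a median of -1. In metastasis minus KO primary 18 of the 21 were positive, with a median of 0.25, and 3 had an unadjusted edgeR p below 0.05. Neurod1, a helix-loop-helix factor that drives granule cells out of the precursor state, was at 407, 886, 503, 554 and 484 CPM in controls and 222, 175, 100.9 and 214 CPM in metastases. The highest metastasis lay well below the lowest control (log2 -1.67, SE 0.27, edgeR adjusted p = 0.00446). Neurod2, its relative of later stages, was at 4.33, 12.6, 15.5, 6.28 and 17.4 CPM in controls and 0.0718, 0.212, 0.351 and 0.604 CPM in metastases (log2 -5.15, SE 0.83, edgeR adjusted p = 0.00405). Elavl4, an RNA-binding protein of young neurons, was at 143 to 207 CPM in controls and 78.3 to 104 CPM in metastases (log2 -0.95, SE 0.13, edgeR adjusted p = 0.00176). Tubb4a, a neural beta tubulin, was at 159 to 367 CPM in controls and 80.2 to 158 CPM in metastases (log2 -1.40, SE 0.25, edgeR adjusted p = 0.00783). Metastasis 6 reached close to control 5 for Tubb4a, and the other libraries were far apart.

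The other 6 genes of that list that fell were Nfasc, Stmn2, Mapt, Tubb3, Tubb2a and Nhlh2, with log2 changes from -1.44 to -0.67 (edgeR adjusted p from 0.00798 to 0.0428). They encode an axonal adhesion protein, a regulator and a binding protein of microtubules, tubulins and a helix-loop-helix factor of newborn neurons. Nfasc kept its call without any 1 library. Stmn2 and Mapt lost theirs without control 4, control 7 or metastasis 3, 4 or 6, and Mapt also without control 6. Tubb3 and Tubb2a lost theirs without control 4, 6 or 7 or metastasis 4, 6 or 7, and Nhlh2 without any 1 library except control 3 (adjusted p of these 5 up to 0.208). Genes of migrating and growing neurons in the same list did not pass. Dcx had a log2 change of -0.35 (edgeR adjusted p = 0.46), Cntn2 -1.26 (0.175) and Gap43 -0.60 (0.237).

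Synaptic genes showed falls of similar size. Of 29 tested genes of the mature granule neuron and the synapse, 13 fell and 2 rose, against 2.02% and 1.06% of all genes. Their median log2 change was -0.90. KO primary against control called 11 of them lower and 3 higher, with a median of -0.96. Syp, the synaptic vesicle protein synaptophysin, was at 70.7, 122, 80.0, 80.3 and 77.5 CPM in controls and 28.6, 30.9, 29.3 and 30.9 CPM in metastases. The 4 metastases were nearly equal and all were far below the lowest control (log2 -1.52, SE 0.17, edgeR adjusted p = 0.000408). Rab3a, a vesicle GTPase, was at 100.8 to 163 CPM in controls and 23.1 to 43.3 CPM in metastases, a 4.27-fold difference (log2 -2.10, SE 0.24, edgeR adjusted p = 0.000421). Dlg4, the postsynaptic scaffold PSD-95, was at 26.0 to 42.8 and 7.15 to 12.1 CPM (log2 -1.82, SE 0.22, edgeR adjusted p = 0.000693). Nrxn2, a presynaptic adhesion protein, was at 19.1 to 27.5 and 8.04 to 8.71 CPM (log2 -1.46, SE 0.19, edgeR adjusted p = 0.00108). Dnm1, the dynamin of synaptic vesicle recycling, was at 14.5 to 37.8 and 0.359 to 1.55 CPM (log2 -4.30, SE 0.72, edgeR adjusted p = 0.00508). None of these 5 genes overlapped between the groups.

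The members that moved the other way were Cbln1, a synapse-organising cerebellin, and Cplx2, a complexin of the release machinery. Cbln1 was at 26.4 to 39.3 CPM in controls and 59.2 to 99.4 CPM in metastases (log2 1.12, edgeR adjusted p = 0.00218). Cplx2 was at 46.2 to 49.9 CPM in controls and 310, 131, 103 and 69.3 CPM in metastases (log2 1.69, edgeR adjusted p = 0.0178), with metastasis 3 the highest. The call of Cplx2 ended without control 4, control 7 or metastasis 3 (adjusted p up to 0.0548). Other markers of mature granule neurons in the list did not pass the edgeR test. Gabra6, a receptor subunit specific to these neurons, had a log2 change of -5.18 (edgeR adjusted p = 0.184), and Slc17a7, a vesicular glutamate transporter, of -4.94 (edgeR adjusted p = 0.0778). DESeq2 called Slc17a7 lower.

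The granule cell precursor list held 14 tested genes, of which 4 rose and 1 fell, against 1.06% and 2.02% of all genes. Their median log2 change was 0.42. KO primary against control called 3 of them higher and 1 lower. The risers included Sox2, Barhl1 and Atoh1. Sox2, a factor of neural stem and early progenitor cells, was at 18.8, 13.6, 20.5, 17.1 and 11.9 CPM in controls and 122, 94.0, 54.0 and 28.7 CPM in metastases. All 4 metastases were above the controls, metastasis 3 the most and metastasis 7 the least (log2 2.19, SE 0.35, edgeR adjusted p = 0.00406). Barhl1, a homeobox gene of the granule lineage, was at 531 to 914 CPM in controls and 1077 to 1588 CPM in metastases (log2 0.87, SE 0.16, edgeR adjusted p = 0.0106). Atoh1, which specifies the lineage, was at 309 to 425 CPM in controls and 371, 861, 548 and 738 CPM in metastases, with metastasis 3 inside the control range (log2 0.85, edgeR adjusted p = 0.0374). Its call ended without control 4, 6 or 7 or metastasis 4, 6 or 7 (adjusted p up to 0.13). Mfap4, a matrix protein in the list, fell from 73.9 ± 32.2 to 18.7 ± 7.09 CPM (SD; log2 -1.98, SE 0.33, edgeR adjusted p = 0.00489).

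The Hedgehog pathway held a single edgeR call. Of 15 tested pathway members and targets, 1 rose and none fell, while DESeq2 called Gas1, Ccnd1 and Ccnd2 higher, and the median log2 change was 0.20. The gene that rose was Ccnd1, a cyclin of the G1 phase, at 361, 318, 354, 359 and 299 CPM in controls and 642, 496, 522 and 482 CPM in metastases. The groups did not overlap (log2 0.66, SE 0.12, edgeR adjusted p = 0.00976). The adjusted p of Ccnd1 was 0.0517 without metastasis 3. Gli1, a Hedgehog-induced activator, was at 63.6 to 176 CPM in controls and 132 to 204 CPM in metastases (log2 0.43, edgeR adjusted p = 0.447). The receptor gene Ptch1 had a log2 change of 0.20 (edgeR adjusted p = 0.89) and Mycn of -0.45 (edgeR adjusted p = 0.457).

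Cell cycle genes held no call. None of 25 genes of the G1/S transition and DNA replication and none of 21 genes of G2/M and mitosis was called by edgeR, with 4 of each below an unadjusted p of 0.05. DESeq2 called 3 of the first list, among them Cdt1 and Uhrf1, and Cdc20 of the second higher. The log2 change was positive for 23 of the 25 and 20 of the 21, with medians of 0.19 and 0.20. Cdc20, a mitotic activator, had the smallest p of the second list (log2 0.29, edgeR adjusted p = 0.206). Among 7 inhibitors of cyclin-dependent kinases, Cdkn1c was the single edgeR call, and DESeq2 also called Cdkn2b lower. Cdkn1c encodes p57 and is maternally expressed, and it was at 8.21, 12.5, 16.0, 12.4 and 10.8 CPM in controls and 73.6, 40.6, 55.5 and 30.6 CPM in metastases. Every metastasis exceeded every control (log2 2.06, SE 0.28, edgeR adjusted p = 0.00157). None of 20 p53 target genes, 9 genes of the Myc family or 22 enzymes of H3K4 and H3K27 methylation was called by edgeR, with medians of -0.37, 0.07 and 0.05. Each list held 4 genes below an unadjusted p of 0.05, and DESeq2 called 2 p53 targets and Mxi1 of the Myc list lower and the Polycomb genes Suz12 and Eed higher. The last 2 medians turned negative with limma voom (-0.05 and -0.09) and without control 3.

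**Figure D3:**
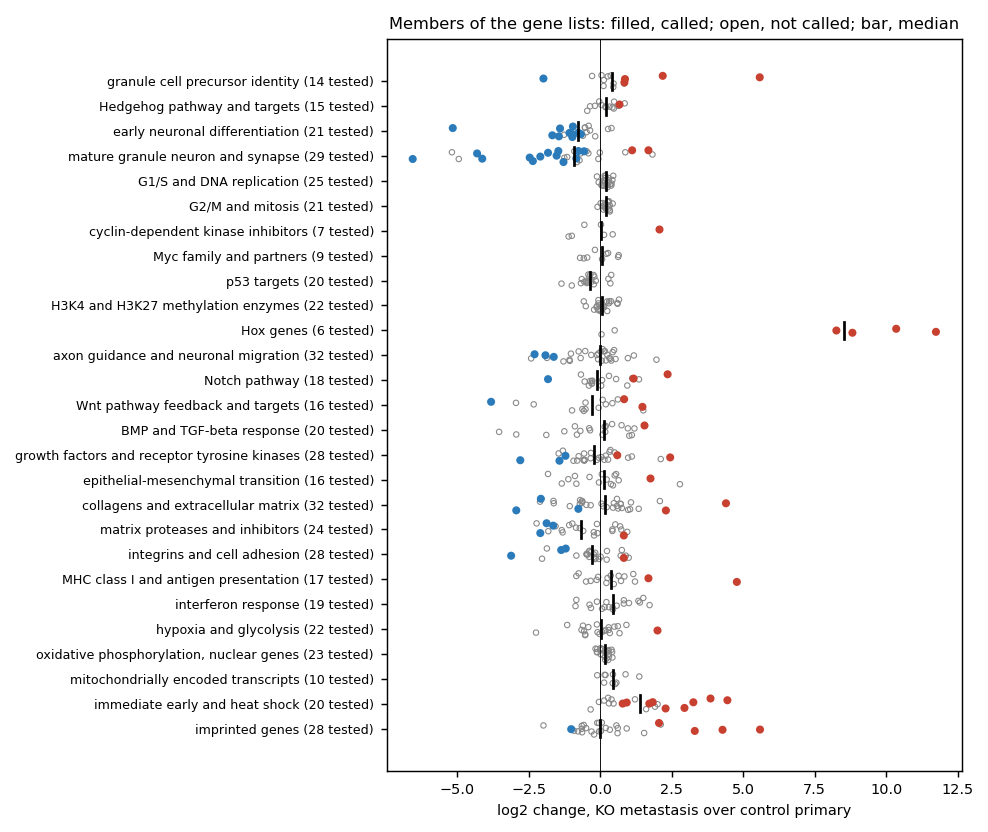
Each point is 1 tested gene placed by its log2 change of KO metastasis over control primary, in rows by gene list, with the number tested; filled points were called (red higher, blue lower), open points were not, and the black bar is the list median. The rows of early neuronal differentiation and of the synapse hold mostly falls, and the rows of immediate early genes and Hox genes hold rises.

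Immediate early genes, which neurons and tumour cells transcribe within minutes of a stimulus, were higher in the metastases. Of 20 tested immediate early and heat shock genes, 9 rose and none fell by edgeR, against 1.06% and 2.02% of all genes. Their median log2 change was 1.41, against -0.039 for all genes. KO primary against control called 1 of the 20 higher and 0 lower, with a median of 0.57. In metastasis minus KO primary 19 of the 20 were positive, with a median of 0.61, and 8 had an unadjusted edgeR p below 0.05. The 9 that rose in the metastases were Fos, Fosb and Jun of the AP-1 dimer, the zinc finger factors Egr1, Egr2 and Egr3, the nuclear receptors Nr4a1 and Nr4a2, and the stress factor Atf3. No heat shock gene was called. Hspa1a had a log2 change of 2.01 (edgeR adjusted p = 0.587) and Hspa8 of -0.04 (edgeR adjusted p = 0.976).

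Promoter sequences are shown for 6 of the 9 genes because many immediate early promoters carry 2 known elements, the cyclic AMP response element and the CArG box of serum response factor. RefSeq promoter entries (GRCm38.p6) matched 7 of the 9, all but Egr1 and Egr3. The 100 bases before the transcription start are printed on the strand of the gene. Capitals mark TGACG or its reverse complement CGTCA, the core of the first element searched on both strands, which can overlap each other, and in Egr2 also the CArG box.
Fos, chr12:85473790-85473889, plus strand: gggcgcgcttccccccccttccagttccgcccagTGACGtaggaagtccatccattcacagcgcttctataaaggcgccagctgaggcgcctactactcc
Fosb, chr7:19310046-19310145, minus strand: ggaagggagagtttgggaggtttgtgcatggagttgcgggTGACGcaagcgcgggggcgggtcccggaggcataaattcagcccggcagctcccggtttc
Egr2, the third of 5 listed starts, chr10:67537769-67537868, plus strand: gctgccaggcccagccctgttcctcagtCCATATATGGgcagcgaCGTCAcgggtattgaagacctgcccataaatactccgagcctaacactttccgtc
Nr4a1, chr15:101266746-101266845, plus strand: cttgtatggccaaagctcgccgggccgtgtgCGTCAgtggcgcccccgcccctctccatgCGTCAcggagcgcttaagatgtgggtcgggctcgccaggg
Atf3, chr1:191183334-191183433, minus strand: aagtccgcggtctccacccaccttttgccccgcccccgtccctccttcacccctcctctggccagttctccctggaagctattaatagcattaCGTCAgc
Jun, chr4:95052223-95052322, minus strand: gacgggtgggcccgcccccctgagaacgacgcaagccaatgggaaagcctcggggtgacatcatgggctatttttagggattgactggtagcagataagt

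Within 250 bases before the first listed start, TGACG on either strand was present in 5 of these 7 genes, and with any listed start in 6. At the first listed start of each of the 27025 gene symbols in the RefSeq table the share was 17.9%. No share with any listed start was computed, so the counts with any listed start have no background. In Nr4a2 the matches lay farther upstream than the bases shown, and Jun held no match in this window. The CArG box was present in 0 of the 7 at the first listed start and in 1, Egr2, with any listed start. It was present at the first listed start of 1.4% of the 27025 gene symbols. Elements farther than 250 bases before a listed start, or differing from the exact form searched, were not looked for. The counts therefore do not show that a gene lacks the CArG box. These matches describe the sequences and were not set against any measurement of factor binding.

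Fos was at 49.1, 10.9, 65.3, 13.8 and 25.6 CPM in controls and 386, 259, 358 and 254 CPM in metastases. The lowest metastasis was several times the highest control, and the means differed 9.54-fold (log2 3.26, SE 0.56, edgeR adjusted p = 0.00616). Fosb was at 2.43, 0.207, 9.84, 0.901 and 1.83 CPM in controls and 75.8, 21.2, 50.2 and 28.1 CPM in metastases (log2 3.86, SE 0.79, edgeR adjusted p = 0.0165). Its adjusted p was 0.0577 without metastasis 3. Egr1 was at 307, 95.6, 455, 168 and 176 CPM in controls and 1151, 1233, 1332 and 978 CPM in metastases (log2 2.29, SE 0.43, edgeR adjusted p = 0.0104). Egr3 was at 0.19, 0, 1.71, 4.57 and 0.565 CPM in controls and 36.6, 27.6, 39.7 and 18.9 CPM in metastases (log2 4.45, SE 0.84, edgeR adjusted p = 0.0106). Control 6 was the highest control for Egr3 and control 5 for Fos, Fosb and Egr1, and no library crossed between the groups for any of these genes.

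Egr2 rose with a log2 change of 1.84 (edgeR adjusted p = 0.0104), Nr4a1 with 1.72 (0.0214), Nr4a2 with 0.79 (0.022), Atf3 with 2.95 (0.0242) and Jun with 0.93 (0.0272). Egr2 kept its call without any 1 library. Leaving out metastasis 3 ended the other 4 calls, as did control 6 for Nr4a1, Atf3 and Jun, control 7 for Nr4a1 and Nr4a2, control 4 for Nr4a2 and Jun, control 5 for Nr4a2, metastasis 6 for Nr4a1, Nr4a2 and Jun, metastasis 4 for Nr4a2 and Jun, and metastasis 7 for Atf3 (adjusted p up to 0.134). The KO primary tumours had intermediate means for Fos and Fosb and overlapped the controls. Fos was there at 92.6, 69.3, 198 and 30.1 CPM and Fosb at 15.5, 7.86, 15.6 and 5.31 CPM. KO primary against control gave log2 changes of 1.57 for Fos (edgeR adjusted p = 0.165) and 1.88 for Fosb (0.255). Egr3 was at 17.5 to 35.6 CPM in KO primary tumours (log2 4.10 against controls, edgeR adjusted p = 0.016). Nr4a1 was there at 2.38 to 5.92 CPM (log2 0.29 against controls, edgeR adjusted p = 0.901). Its difference of metastasis minus KO primary was 1.43 (95% interval 0.59 to 2.28). The direct difference of metastasis minus KO primary was 1.69 for Fos, with a 95% interval of 0.44 to 2.93 and an edgeR adjusted p of 1.

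Of the Hox genes, 4 were higher in the metastases. Hox genes are homeobox genes that mark position along the body axis and are silent in the cerebellum, which forms in front of their expression limit. Of 30 listed, 6 passed the filter, through the KO libraries alone for those called, and Hoxa2, Hoxb2, Hoxb3 and Hoxb4 rose. Over all tested genes 1.06% were called higher, but the filter kept these Hox genes through the libraries where they were high. Control 3 held Hoxb1 at 2.55 CPM, above the 0.0359 to 0.978 CPM of the metastases, and Hoxa9 at 1.41 CPM. Hoxb4 (chr11:96318267-96321638) was at 32.4, 12.6, 8.01 and 0.115 CPM in metastases 3, 4, 6 and 7, from 1608 counts, while the 5 controls held 1 count together. The ratio of 1930 has a 95% counting interval of 346 to 76300 (log2 10.35, SE 1.41, edgeR adjusted p = 0.00133). Hoxb3 (chr11:96323326-96347930) had no count in the controls and was at 23.5, 18.8, 9.20 and 0 CPM in the metastases, at least 649-fold higher when 3 counts are taken as the floor for all controls together (edgeR adjusted p = 0.0166). Hoxb2 (chr11:96350525-96354012) was at 20.9, 18.1, 6.92 and 0.0288 CPM in metastases and had 5 counts in controls, all in control 3, the library with the most receptor counts (edgeR adjusted p = 0.00596).

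These 3 neighbours on chromosome 11 were high in metastases 3, 4 and 6 and at or near 0 in metastasis 7. Hoxa2 on chromosome 6 was different, at 13.2, 13.2, 5.13 and 11.5 CPM, with 3 counts in the controls, again all in control 3 (ratio 564, 95% counting interval 193 to 2740, edgeR adjusted p = 0.00266). In the KO primary tumours Hoxb4 was at 1.04, 1.03, 1.72 and 0.379 CPM and Hoxa2 at 1.56, 4.71, 1.35 and 0 CPM, and both were called above controls (edgeR adjusted p = 0.0199 and 0.0158). Low levels of these transcripts were thus also counted in the cerebellar tumours of knockout mice. The difference of metastasis minus KO primary was 3.66 for Hoxb4 (95% interval 1.52 to 5.80) and 2.49 for Hoxa2 (0.39 to 4.60), both with an edgeR adjusted p of 1. The counts do not separate strands as far as the sources state, so transcripts antisense to the Hox genes cannot be told apart from them.

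Ren1 and Rcan2 followed the same order of libraries. Ren1 (chr1:133350510-133360325) encodes renin, the protease that starts the angiotensin cascade, and has a near-identical second copy in some mouse strains, so its counts are uncertain. It was at 2.55, 0.267, 0.152, 0.515 and 0.108 CPM in controls and 299, 221, 114 and 7.28 CPM in metastases. Metastasis 7 was far below the other metastases and still above every control (log2 7.86, SE 1.22, edgeR adjusted p = 0.00316). Rcan2, an inhibitor of the phosphatase calcineurin, was at 6.24, 3.91, 1.79, 2.96 and 3.93 CPM in controls and 92.2, 92.1, 64.4 and 6.33 CPM in metastases, with metastasis 7 only just above control 3 (log2 4.08, SE 0.67, edgeR adjusted p = 0.00447). In KO primary tumours Ren1 was at 18.99, 17.3, 9.18 and 0.813 CPM and Rcan2 at 14.2, 5.12, 9.79 and 2.55 CPM. The difference of metastasis minus KO primary was 3.79 for Ren1 (95% interval 1.48 to 6.10) and 3.01 for Rcan2 (1.52 to 4.50), each with an edgeR adjusted p of 1. Leaving out the libraries rich in receptor counts takes out metastases 6 and 7 and KO primary 7. It keeps metastases 3 and 4, the highest metastases for Ren1, Rcan2 and Hoxb4. In that fit 5 genes were called higher in metastases than in KO primary tumours. Ren1 was among them with a difference of 4.10 (edgeR adjusted p = 0.00591), as were Rcan2 with 3.25 and Hoxb4 with 4.14 (both 0.0301), beside Hoxb3 and Map1b.

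**Figure D4:**
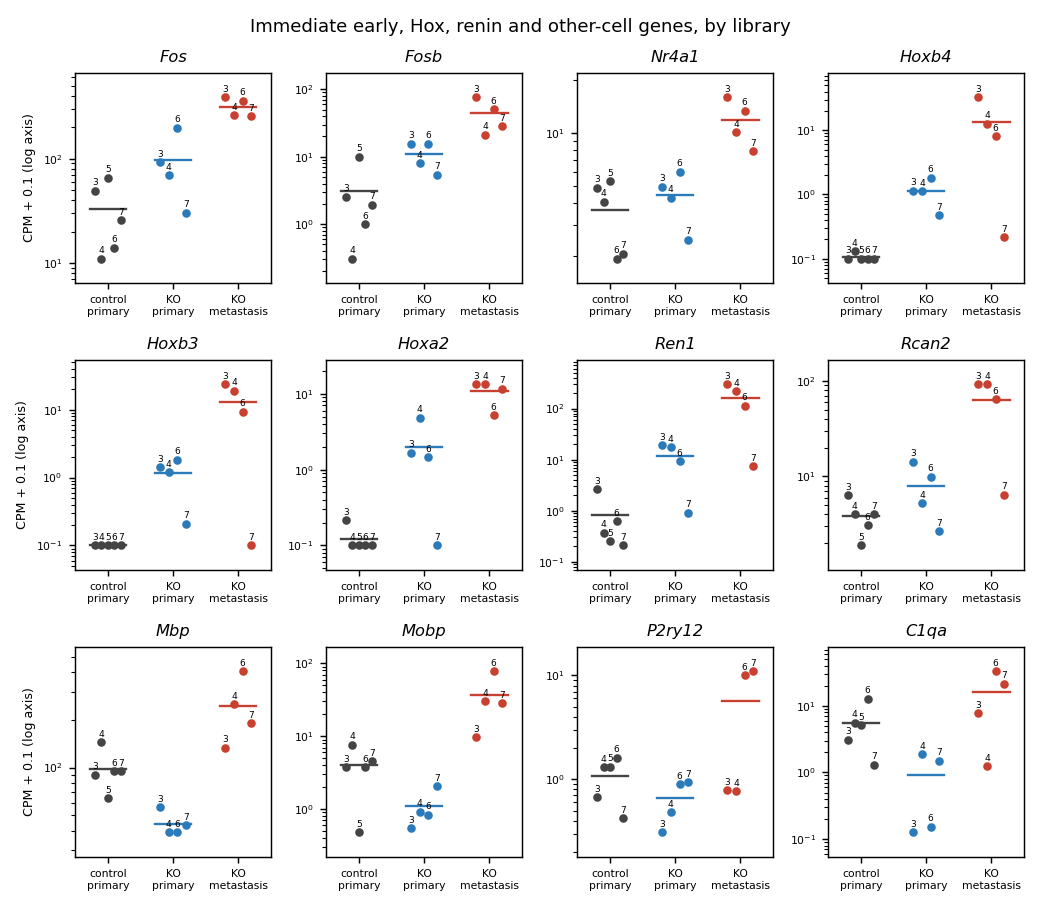
Each panel shows 1 gene, with CPM plus 0.1 on a log axis, 1 point per library labelled with its number, and the group mean as a bar, for control primary, KO primary and KO metastasis. Metastasis 7 is the lowest metastasis for Hoxb4, Hoxb3, Ren1 and Rcan2, the KO primary means lie between the other 2 group means for Fos, Fosb and Ren1 while single points overlap, and metastases 6 and 7 are the highest for P2ry12 and C1qa.

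Setting metastases directly against KO primary tumours tests the difference at equal genotype. Over all 22265 genes 1 was called by edgeR (0.00449%), the myelin gene Mbp, which was higher in metastases, and 720 genes (3.23%) had an unadjusted p below 0.05. With DESeq2 33 genes were called. Both contrasts with the controls share those 5 libraries, and KO primary against control called 653 genes (2.93%), 257 of them higher (1.15%) and 396 lower (1.78%). Of the 685 genes called here, the median absolute difference between metastasis and KO primary was 0.242 log2 units, and the median half-width of its 95% interval was 0.617. Of the 685, 93 had an unadjusted edgeR p below 0.05 in this contrast, so their intervals left out 0. The 685 were chosen with the same metastasis libraries, so the 93 are not set against the 3.23% of all genes. For the other called genes the intervals leave room for differences in either direction. Clrn1, at 19.7 to 22.8 CPM in KO primary tumours, differed by -0.26 (95% interval -0.75 to 0.23). Syp, at 24.8 to 35.4 CPM there, differed by -0.10 (-0.47 to 0.28), and Neurod1, at 132 to 219 CPM, by 0.14 (-0.46 to 0.73).

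Other signalling lists held 1 to 5 calls each, between 5% and 18.8% of their tested genes against 3.08% of all genes. Of 20 BMP and TGF-beta response genes, Id2, an inhibitor of helix-loop-helix factors, was the single edgeR call, and DESeq2 also called Tgfb2 higher. It was at 181, 143, 179, 131 and 121 CPM in controls and 484, 442, 344 and 500 CPM in metastases, without overlap (log2 1.55, SE 0.19, edgeR adjusted p = 0.000769). Of 18 Notch pathway genes, 2 rose and 1 fell. The ligand gene Dll4 fell from 13.8 ± 3.02 to 3.91 ± 0.286 CPM (SD; log2 -1.82, edgeR adjusted p = 0.00762). The ligand gene Jag1 rose with a log2 change of 1.17 (edgeR adjusted p = 0.0229) and missed the threshold without control 4, control 7 or metastasis 4 (adjusted p up to 0.0716). Hes1, a Notch-induced repressor, rose by 2.36 (edgeR adjusted p = 0.0288), and its call ended without control 6, control 7, or metastasis 3, 4 or 6 (adjusted p up to 0.0935).

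Of 16 Wnt feedback genes, Nkd1, an inhibitor of Dishevelled, was at 253 to 361 CPM in controls and 441 to 631 CPM in metastases (log2 0.84, SE 0.14, edgeR adjusted p = 0.00413). Sfrp2, a secreted Wnt modulator, rose by 1.48 (edgeR adjusted p = 0.0287), a call that ended without control 4, control 7 or metastasis 4 (adjusted p up to 0.109). Sp5, a Wnt target, fell by 3.81 (edgeR adjusted p = 0.0331). Its call ended without control 4, 5 or 6 or metastasis 3, 4 or 7 (adjusted p up to 0.103). Among 28 growth factors and receptor tyrosine kinases, 2 rose and 3 fell. Fgf5, a fibroblast growth factor, was at 2.395 to 12.9 CPM in controls and 36.8, 51.8, 56.2 and 24.2 CPM in metastases (log2 2.45, SE 0.48, edgeR adjusted p = 0.0134). Ntrk2, the receptor of brain-derived neurotrophic factor, was at 36.7 to 66.2 CPM in controls and 15.4 to 22.3 CPM in metastases (log2 -1.21, SE 0.21, edgeR adjusted p = 0.00685). Ntrk3, the neurotrophin-3 receptor, rose by 0.60 and Ret fell by 2.79 (edgeR adjusted p = 0.0282 and 0.0366). The call of Ntrk3 ended without control 4, control 7 or metastasis 3, 4 or 7 (adjusted p up to 0.113), and that of Ret without control 4, 6 or 7 or metastasis 3, 4 or 6 (adjusted p up to 0.121).

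Genes of the cell surface and the matrix moved in both directions. Cxcl12, the chemokine that holds granule cell precursors at the cerebellar surface, was at 29.6, 35.1, 30.6, 24.9 and 43.2 CPM in controls and 12.4, 11.3, 7.62 and 11.1 CPM in metastases. Every metastasis was below every control (log2 -1.62, SE 0.19, edgeR adjusted p = 0.000607). It was 1 of 3 falls among 32 axon guidance and migration genes, beside the ephrin receptor Ephb1 (log2 -2.29, edgeR adjusted p = 0.00468) and Sema4a (log2 -1.91, edgeR adjusted p = 0.0099). None of the 32 was called higher by edgeR, and DESeq2 called 3 higher and 5 lower. Ncan, the proteoglycan neurocan of the brain matrix, was at 41.0, 34.5, 118, 81.1 and 63.4 CPM in controls and 8.65, 9.47, 11.2 and 6.10 CPM in metastases (log2 -2.93, SE 0.34, edgeR adjusted p = 0.000566). Of 32 collagen and matrix genes, 2 rose (Emilin2 and Col18a1) and 3 fell (Ncan, Lama1 and Vcan). Col18a1, the collagen from which endostatin is cleaved, was at 21.5 to 82.9 CPM in controls and 193, 409, 128 and 197 CPM in metastases (log2 2.30, edgeR adjusted p = 0.0145), and its adjusted p was 0.0538 without metastasis 4. The laminin chain gene Lama1 fell by 2.07 on the log2 scale (edgeR adjusted p = 0.0244), a call that ended without metastasis 3, 4 or 6 (adjusted p up to 0.0889). Vcan, a chondroitin sulphate proteoglycan, fell by 0.76 (edgeR adjusted p = 0.0311), a call that ended without any 1 library except control 3 or metastasis 6 (adjusted p up to 0.138).

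Adhesion and protease genes held calls in both directions. Of 28 integrin and adhesion genes, 3 fell and 1 rose. L1cam, an adhesion protein of growing axons, was at 7.76, 28.3, 30.4, 20.2 and 20.6 CPM in controls and 1.58, 3.34, 0.913 and 4.06 CPM in metastases (log2 -3.11, SE 0.50, edgeR adjusted p = 0.00405). Itga4 fell by 1.20 (edgeR adjusted p = 0.0127; 0.0575 without metastasis 4). Itga7 fell by 1.36 (edgeR adjusted p = 0.0286), and its call ended without control 4, 6 or 7 or metastasis 3, 4 or 6 (adjusted p up to 0.106). Cdh13, a cadherin anchored by a lipid, rose by 0.83 (edgeR adjusted p = 0.0253), a call that ended without control 7 or metastasis 4, 6 or 7 (adjusted p up to 0.0909). Of 24 matrix proteases and inhibitors, 3 fell and 1 rose, with a median of -0.65. Mmp24, a membrane-bound metalloproteinase of neurons, was at 87.0, 280, 166, 214 and 229 CPM in controls and 26.8, 52.5, 35.2 and 68.9 CPM in metastases (log2 -2.09, SE 0.37, edgeR adjusted p = 0.00687). The other calls of that list were weak. Serpine2 (log2 -1.87) lost its call without control 4, 5 or 7 or metastasis 3, 4 or 7 (adjusted p up to 0.14). Timp4 (log2 -1.64) lost it without any 1 library except control 7, and Mmp11 (log2 0.83) without any 1 except control 3 (adjusted p up to 0.104 and 0.121).

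Of 16 genes of the epithelial-mesenchymal transition, Vim was the single edgeR call, while DESeq2 called 3 higher and 1 lower. Vim encodes the intermediate filament vimentin and was at 124, 122, 144, 127 and 174 CPM in controls and 722, 498, 347 and 305 CPM in metastases. All metastases were above the controls (log2 1.76, SE 0.25, edgeR adjusted p = 0.00186). Among 28 imprinted genes, 4 rose and 1 fell. Grb10, an adaptor that restrains growth factor signalling, was at 2.62, 1.60, 7.94, 1.06 and 2.85 CPM in controls and 48.0, 39.5, 19.8 and 19.5 CPM in metastases (log2 3.31, SE 0.57, edgeR adjusted p = 0.00612). H19, a noncoding RNA, rose through metastasis 3, at 23.7 CPM against 0.318 to 1.02 CPM in the other metastases and at most 0.38 CPM in controls (log2 5.59, edgeR adjusted p = 0.0329). Its call ended without metastasis 3 or control 4, 6 or 7 (adjusted p up to 0.406). Nnat, a membrane proteolipid, fell by 1.01 (edgeR adjusted p = 0.0169), and the call ended without control 4, control 7 or metastasis 4, 6 or 7 (adjusted p up to 0.0746).

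Of 17 genes of class I antigen presentation, H2-T23 rose beside H2-Q7, from 6.56 ± 3.21 to 21.1 ± 4.11 CPM (SD; log2 1.69, edgeR adjusted p = 0.0122). None of 19 interferon response genes was called by edgeR, 2 had an unadjusted p below 0.05, and DESeq2 called Ifih1 and Rsad2 higher. Their median was 0.44, and -0.09 without metastasis 6. Ifih1, a sensor of double-stranded RNA, came closest, at 6.58 to 8.98 CPM in controls and 28.1, 33.7, 18.4 and 8.06 CPM in metastases (log2 1.51, edgeR adjusted p = 0.0506). Of 22 genes of hypoxia and glycolysis, Ndrg1, a stress-induced gene also expressed by myelinating cells, was called by edgeR, and DESeq2 called 3 higher and 3 lower (Ndrg1 log2 1.98, edgeR adjusted p = 0.0308). It was highest in metastasis 6, at 22.9 CPM, and its call ended without control 4, 5 or 6 or metastasis 4 or 6 (adjusted p up to 0.128). Neither the 23 nuclear genes of oxidative phosphorylation nor the 10 mitochondrial transcripts tested held an edgeR call. Unadjusted p was below 0.05 for 0 and 4 of them, and DESeq2 called mt-Nd5 and mt-Nd6 higher.

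Markers of other cell types moved with the metastases in part. Summed over 13 markers of myelinating oligodendrocytes, levels were 154 to 442 CPM in controls, 77.9 to 115 CPM in KO primary tumours and 183, 324, 2040 and 871 CPM in metastases 3, 4, 6 and 7. Of the 13, 2 rose, 11 had a positive change, and none was at 0 in all metastases. Their median log2 change was 2.25, and -1.33 without the libraries rich in receptor counts. Mbp, the myelin basic protein, was at 90.2, 144, 63.9, 95.1 and 94.6 CPM in controls and 134, 251, 406 and 191 CPM in metastases, with metastasis 3 below control 4 (log2 1.33, SE 0.29, edgeR adjusted p = 0.0216). Without control 6, control 7, metastasis 4 or metastasis 6 that call ended (adjusted p up to 0.0754). Against the KO primary tumours, where Mbp was at 38.9 to 55.9 CPM, its difference was 2.47 (95% interval 1.79 to 3.16, edgeR adjusted p = 0.0485). That second call ended without any 1 KO primary library and without metastasis 4, 6 or 7 (adjusted p up to 0.48). Mobp, a myelin-associated protein, was at 0.38 to 7.52 CPM in controls and 9.59, 29.9, 78.0 and 28.1 CPM in metastases (log2 3.20, edgeR adjusted p = 0.021). Its call ended without control 6, control 7 or metastasis 6 (adjusted p up to 0.0755).

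Microglial and macrophage markers had the same pattern of libraries. All 15 tested had a positive change, with a median of 1.53, and none was called by edgeR. Without the libraries rich in receptor counts the median was -0.48. An unadjusted p below 0.05 was found for 4 of them, and DESeq2 called P2ry12 and Ctss higher. Their sum was 11.8 to 95.4 CPM in controls and 52.5, 15.8, 262 and 201 CPM in metastases. P2ry12, a purinergic receptor of microglia, was at 0.682, 0.663, 9.94 and 10.9 CPM in metastases and 0.323 to 1.51 CPM in controls (log2 2.52, edgeR adjusted p = 0.134). Without the libraries rich in receptor counts its change was -0.65. Metastases 6 and 7 were also those with many receptor counts. The part of the myelin and microglial RNA in other calls was not tested.

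Markers of oligodendrocyte precursors were lower. Of 10, 4 fell and none rose, against 2.02% and 1.06% of all genes, with a median of -1.38. Their sum was 1130 to 1550 CPM in controls, 727 to 1160 CPM in KO primary tumours and 640 to 765 CPM in metastases. KO primary against control called 1 of the 10 lower and 0 higher, with a median of -1.26. C1ql1, a secreted C1q-like protein, was at 861, 923, 641, 939 and 1085 CPM in controls and 451, 347, 403 and 463 CPM in metastases (log2 -1.10, SE 0.17, edgeR adjusted p = 0.00276). It made up most of the sum in controls and metastases, so the sum mainly follows this gene. Cspg4, the proteoglycan NG2, was at 12.4 to 22.9 CPM in controls and 2.94 to 4.71 CPM in metastases (log2 -2.07, SE 0.35, edgeR adjusted p = 0.00508). Gpr17 and Pdgfra fell by 3.05 and 1.42 (edgeR adjusted p = 0.0306 and 0.0308). The call of Gpr17 ended without control 4 or metastasis 3, 4 or 6 (adjusted p up to 0.107), and that of Pdgfra without control 4 or 6 or any 1 metastasis (adjusted p up to 0.112). Their part in the falls of neuronal genes was not tested.

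Blood and vessel markers were low. Lymphocyte, neutrophil and erythroid markers summed to at most 6.04, 3.44 and 11.8 CPM in metastases, and endothelial markers to at most 17.3 CPM, with no call by edgeR or DESeq2 among them and 1 unadjusted p below 0.05, in the lymphocyte list. Of 13 astrocyte markers Sox9, a gene also used by progenitors, was called higher by edgeR (log2 0.83, adjusted p = 0.0236), and DESeq2 also called Aldoc lower. The Sox9 call ended without control 4, 5 or 7 or metastasis 4 or 6 (adjusted p up to 0.0881). Of 11 fibroblast and meningeal markers 2 fell, Ptgds (log2 -2.46, edgeR adjusted p = 0.0263) and Pdgfra. The call of Ptgds ended without control 4, control 7 or metastasis 3, 4 or 7 (adjusted p up to 0.0911). The choroid plexus markers Clic6 and Kl fell by 2.39 and 1.20 (edgeR adjusted p = 0.0158 and 0.0378), while Otx2, which granule precursors also express, rose by 0.76 (edgeR adjusted p = 0.0236). Clic6 lost its call without metastasis 6 (adjusted p = 0.0649), Kl without any 1 library except control 3 or metastasis 6 (up to 0.13), and Otx2 without control 7 or metastasis 3, 4 or 7 (up to 0.0842).

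Neuronal markers of the spinal cord held calls in both directions. Of 8 tested motor and cholinergic neuron markers, Isl1, Isl2 and Slc5a7 rose and Slc18a3 and Ret fell. Slc5a7, the choline transporter, was at 11.6 to 27.96 CPM in controls and 34.9 to 66.5 CPM in metastases (log2 1.43, SE 0.27, edgeR adjusted p = 0.0115). Isl2 (log2 2.10, edgeR adjusted p = 0.0392) lost its call without any 1 library except control 3 (adjusted p up to 0.107). In KO primary tumours Slc5a7 was at 37.4 to 68.2 CPM and Isl2 at 4.19 to 8.64 CPM, and both overlapped the metastases. Isl1, a LIM homeobox gene, was at 0.038, 0, 0, 0.29 and 0 CPM in controls and 1.69, 5.94, 9.66 and 1.27 CPM in metastases (log2 6.07, SE 1.07, edgeR adjusted p = 0.00685). It was at 1.84 to 7.51 CPM in the KO primary tumours of the cerebellum, so it was counted at both sites (metastasis minus KO primary 0.15, 95% interval -1.76 to 2.06). Chat, the enzyme that makes acetylcholine, was at 0, 0, 0.281 and 0.604 CPM in metastases and 2.21 to 10.04 CPM in controls (log2 -4.33, edgeR adjusted p = 0.176). Of 6 dorsal horn markers Tlx3 alone was called by edgeR and by DESeq2, at 13.8 to 36.1 CPM in controls, 52.3 to 87.4 CPM in metastases and 51.6 to 125 CPM in KO primary tumours (log2 1.53, SE 0.29, edgeR adjusted p = 0.0119).

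**Figure D5:**
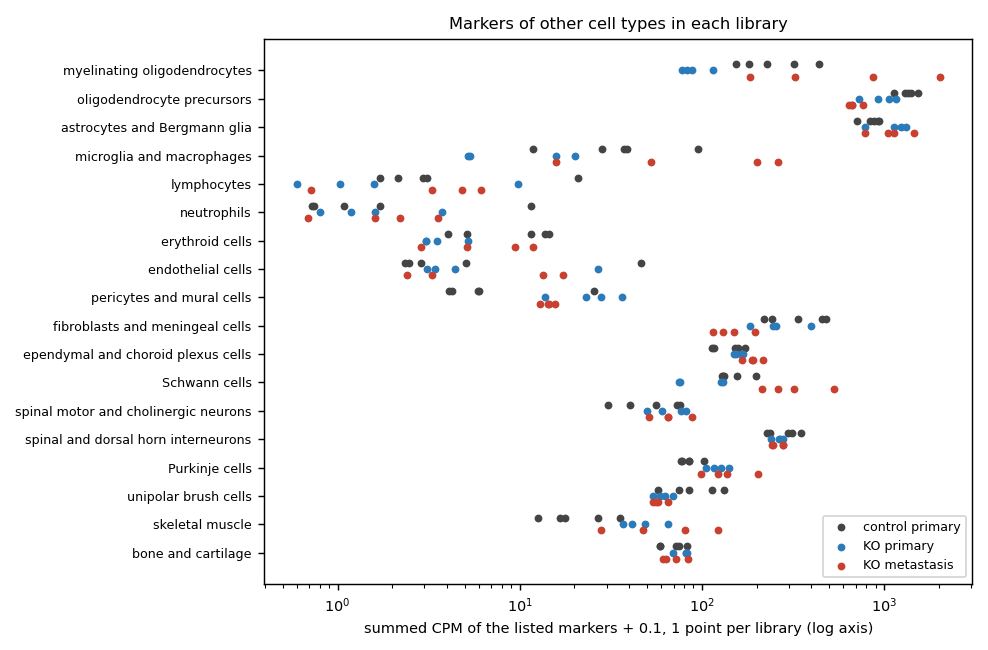
Each row is a list of markers of another cell type, and each point is the summed CPM of its markers plus 0.1 in 1 library on a log axis, for control primary, KO primary and KO metastasis. The myelin sum reaches 2040 CPM and the microglial sum 262 CPM in metastasis 6, and the oligodendrocyte precursor sums of the metastases lie below all controls.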

How the data were processed

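RNA-seq of GFP-sorted tumour cells was measured in 13 mouse libraries, of which 9 entered the comparison and the 4 KO primary libraries shared its estimate of spread. The authors deposited unnormalized read counts per gene symbol. STAR 2.4, HTSeq 0.6.1, DESeq2 and the build mm10 are named per the submitters' processing notes, which do not give their roles. The strand setting, the annotation release and any molecular identifiers were not given in the sources used here. Counting intervals and floors cover counting error only. The intervals of metastasis minus KO primary rest on the standard error and so also cover the spread between libraries.

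Counts were analysed in R 4.3.3 with edgeR 4.0.16 (limma 3.58.1). The filter was filterByExpr with a minimum count of 10 and a minimum total of 15. TMM scaling was used, and genes were tested with the quasi-likelihood F test on group means over all 13 libraries, with Benjamini-Hochberg adjustment over all tested genes and a call at an adjusted p below 0.05. The standard error (SE) is the log2 change divided by the square root of F. DESeq2 1.42.0 and limma voom were alternatives, beside other scalings and filters, the replicate block, a covariate for Xist and left-out libraries. The test was checked on simulated counts. Coordinates are from GENCODE M21 (GRCm38), matched by symbol. Promoters are from RefSeq (GRCm38.p6).

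The gene lists and the genes compared were chosen with earlier results of these data known. Named genes were Kmt2d and Smo, the 12 largest rises and 12 largest falls among called genes with at least 5 CPM in the higher group and no overlap of libraries, and up to 4 called genes of the smallest p in each of 45 lists, or the 1 of smallest p where none was called. Predicted genes, clones, Riken names, Xist, Tsix and Y-linked genes were passed over. Some genes that the rule names are not reported here. Further list members were named after their values were seen. Of the lists, 18 hold markers of other cell types.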

Additional observations from a re-analysis of the deposited data

Results flagged for a closer look

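Single libraries stood apart from the rest of their group in 27 of 260 groups of libraries, tested over 130 named genes by the gap to the nearest library relative to the range (Dixon's 95% critical value). Chance flags about 1 in 20 groups of normally distributed values. The test was run on untransformed CPM, whose distribution was not checked, so the number flagged is not set against that share. That share does not apply to Hoxa2, Hoxb2, Hoxb4 and Slc18a3, where the other libraries of the group were at 0. Control 5 accounted for 6 of them, control 3 and metastasis 3 for 5 each, and control 4 for 4.

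Control 5 was the highest control for Fosb at 9.84 CPM (others at most 2.43), Grb10 at 7.94 (at most 2.85), Lama1 at 36.0 (at most 16.6), Mfap4 at 130 (at most 66.8) and Sp5 at 23.6 CPM (at most 6.86). It was the lowest for the tendon factor Scx at 1.37 CPM, against 7.30 to 9.33 CPM in the other controls.

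Control 3, the library with the most receptor counts, was the highest control for Emcn at 1.90 CPM (others at most 0.225), Hoxa2 at 0.114 and Hoxb2 at 0.19 (others 0), Mpo at 4.37 (at most 1.51) and Ren1 at 2.55 CPM (at most 0.515). Control 4 was the highest for Syp at 122 CPM (at most 80.3), Ntrk2 at 66.2 (at most 42.6), Slc5a7 at 28 (at most 16.2) and Hoxb4 at 0.0296 CPM (others 0). Isl1 was highest in control 6 at 0.29 CPM and H2-Q7 in control 7 at 0.619 CPM, against at most 0.038 and 0.193 CPM in the others.

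Metastasis 3 was the highest metastasis for Zic1 at 364 CPM (others at most 216), Nnat at 1478 (at most 842), H19 at 23.7 (at most 1.02), Calb2 at 6.07 (at most 2.87) and Slc18a3 at 1.11 CPM (others 0). Metastasis 4 was the highest for Emilin2 at 51.7 CPM (at most 18.1) and Sfrp2 at 473 CPM (at most 226). Krt12 stood at 2.77 CPM in metastasis 6, against at most 0.374 CPM, and the immunoglobulin genes Igha and Igkc at 0.345 and 0.288 CPM in metastasis 7, against at most 0.0351 CPM.

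The change of Mbp from the controls differed between metastases and KO primary tumours by 2.47 on the log2 scale in the direct test (edgeR adjusted p = 0.0485). The call ended when any 1 KO primary library or metastasis 4, 6 or 7 was left out, with an adjusted p of up to 0.48.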

How the results depend on the processing

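Against 235 genes called higher and 450 lower, other size factors gave 252 and 460, DESeq2 715 and 956, limma voom with quality weights 2318 and 1504, no filter 200 and 393, a filter of 1 CPM in 4 libraries 328 and 573, the 2 groups alone 157 and 416, the libraries without many receptor counts 581 and 693, the Xist covariate 115 and 214, and the controls without Xist 44 and 56. With 1 library left out the counts were 125 to 428 and 244 to 771, lowest without metastasis 4 and highest without control 3. The voom fit moved the median log2 change of all genes from -0.039 to 0.0821. The cause of these moves was not tested.

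Metastasis against KO primary tumours gave 1 higher and 0 lower calls. DESeq2 gave 28 and 5, voom 1 and 1, no filter 2 and 0, the libraries without many receptor counts 5 and 0, and the 2 groups alone and the Xist covariate 0 and 0. With 1 library left out there were 0 to 1 higher calls. DESeq2 called the differences of Mobp (5.24) and Rcan2 (3.04).

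With the replicate block the counts were 233 higher and 406 lower, with 506 of the 639 genes shared with the 685, and 0 calls against KO primary tumours. Same-numbered libraries correlated at 0.253, 0.172, -0.0932 and 0.169 between metastases and controls and at 0.0671 to 0.598 between metastases and KO primary tumours. The numbers were not taken to pair them, as not every library correlated best with its own number. Among KO primary tumours, metastases 6 and 7 did so, at 0.338 and 0.598, and metastases 3 and 4 did not. A pairing of metastases with KO primary tumours alone was not tested. With the replicate block Kmt2d changed by 0.06 and the Isl1 difference from KO primary by -0.32.

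Other changes that turned their sign had not been called. With voom these were Ptch1 -0.08, Smo -0.08, Zic1 -0.18 and, against KO primary, Isl1 -0.54 and Neurod1 0.00. Without the libraries of many receptor counts they were Hspa1a -0.31, Hspa8 0.02, P2ry12 -0.65 and the Isl1 difference -0.37. With the Xist covariate they were Emcn -0.09 and Kmt2d 0.34, and without the controls with Xist Hspa8 0.09 and Kmt2d 0.41. With 1 library left out, the values ran from -0.15 to 0.05 for Hspa8, -0.24 to 0.05 for Kmt2d, -0.92 to 0.28 for Mpo, -0.18 to 0.19 for Smo, -0.21 to 0.18 for Zic1 and -0.47 to 0.58 for the Isl1 difference.

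Of the 102 called genes named, the call was kept by 102 with other size factors and with the stricter filter, by 101 of 101 fitted with DESeq2, 95 without a filter, 94 with voom, 83 of 99 fitted in the 2 groups alone, 82 with the block, 90 without the libraries of many receptor counts, 45 with the Xist covariate, 19 without the controls with Xist, and 62 to 101 with 1 library left out. Depth limits genes counted a few times a library, such as the Hox genes in controls.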

Other observations

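Some marker lists of other cell types held calls that follow no single type. Of 7 tested Purkinje cell markers 2 were higher in the metastases, among them Pvalb, the calcium-binding parvalbumin, and 2 of the 7 had a positive change. Pvalb was at 8.11 to 23.4 CPM in controls and 116, 25.1, 39.6 and 74.2 CPM in metastases (log2 2.14, SE 0.40, edgeR adjusted p = 0.00961). It was also the single call among 7 skeletal muscle markers. Of 5 bone and cartilage markers Alpl, an alkaline phosphatase, was called by edgeR, at 1.26 to 3.19 CPM in controls and 4.96 to 9.70 CPM in metastases (log2 1.71, SE 0.34, edgeR adjusted p = 0.0134). The KO primary tumours had Pvalb and Alpl at levels that overlapped those of the metastases. None of 5 unipolar brush cell and 8 pericyte markers was called by edgeR. Unadjusted p was below 0.05 for 3 and 1 of them, and DESeq2 called Calb2 lower and Acta2 higher. Of 8 Schwann cell markers, the 2 calls were Mbp and Egr2, which stand in other lists too.

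A few genes outside the lists were picked after their values were seen. Shox2, a homeobox gene of limb patterning, was at most 0.19 CPM in controls. It was at 1.15 to 5.92 CPM in metastases and 0.529 to 3.95 CPM in KO primary tumours (log2 6.16, edgeR adjusted p = 0.013). The muscle factor Myog was at 14.8 CPM in metastasis 3 and 0.547 to 0.773 CPM in the other metastases, and at most 0.114 CPM in controls (log2 7.43, edgeR adjusted p = 0.0201).

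Mndal, an interferon-inducible gene, fell into separate levels among the controls. It was at 54.0, 43.2 and 40.3 CPM in controls 4, 6 and 7, at 0.152 and 0.038 CPM in controls 3 and 5, and at most 0.316 CPM in metastases and 0.569 CPM in KO primary tumours. It was called lower in the metastases (log2 -8.36, edgeR adjusted p = 0.0357) although its groups overlapped.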
